A study of Mus musculus with 6 samples.

Results

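The genes described here are 31 genes of the lysosome, of its proton pump the V-ATPase, and of autophagy, chosen by symbol out of 56689 identifiers measured in mouse embryonic stem cells. They comprise 2 transcription factors, 6 membrane and cholesterol export proteins, 11 hydrolases, 5 V-ATPase subunits and 7 autophagy proteins. RNA-seq was done on 3 libraries of Max-KO cells and 3 libraries of WT cells, all of the C57BL/6 strain and with no other treatment given in the labels. Max is the obligate partner through which MYC proteins bind E-box DNA, and it also pairs with MXD, MNT and MGA repressors. How the allele was made, whether the Max-KO libraries come from 1 clone, and the growth medium are not stated in the labels, and nothing says that the 3 libraries of a group are separate cultures, so p-values may measure technical spread.

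Lysosomes digest material delivered by endocytosis and by autophagy, in which a double membrane closes around cytoplasm and fuses with the lysosome. The V-ATPase pumps protons to keep the lumen acidic, and most of the hydrolases need that acidity. TFEB, TFE3 and MITF, the MiT/TFE factors, move into the nucleus when nutrients are short and activate lysosomal and autophagy genes through an E-box-like motif whose core, CACGTG, is also the preferred site of MYC-MAX dimers.

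Because Max and the MiT/TFE factors share that core, the promoters of 6 members are shown, with every CACGTG in capitals. Each is a RefSeq window of build GRCm38.p6, from 250 bases before to 50 bases after an annotated start, on the gene's own strand. The first 4 (Lamp1 at chr8:13158911-13159210, plus strand, Mcoln1 at chr8:3500269-3500568, plus strand, Ctsd at chr7:142387778-142388077, minus strand, and Ctsa at chr2:164833523-164833822, plus strand) hold the core at least 2 times. Ctsa also has a window at another annotated start (chr2:164832622-164832921, plus strand), which is not shown and holds no copy of the core. Neu1 (chr17:34931003-34931302, plus strand) and Gabarapl1 (chr6:129532942-129533241, plus strand) have no copy in this window and are shown because they were among the members that fell most. The 6 do not stand for all members. Not shown are Gla, with 2 copies, Ctsl, which has 1 copy and fell, and Lamp2, Cd63, Atp6v0a1 and Wipi1, which have no copy and rose.
Lamp1: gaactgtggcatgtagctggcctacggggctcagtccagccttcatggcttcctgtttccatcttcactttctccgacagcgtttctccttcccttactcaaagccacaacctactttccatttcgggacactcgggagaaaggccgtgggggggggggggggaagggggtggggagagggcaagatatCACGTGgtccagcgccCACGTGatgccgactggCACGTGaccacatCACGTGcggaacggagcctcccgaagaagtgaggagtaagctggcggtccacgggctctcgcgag
Mcoln1: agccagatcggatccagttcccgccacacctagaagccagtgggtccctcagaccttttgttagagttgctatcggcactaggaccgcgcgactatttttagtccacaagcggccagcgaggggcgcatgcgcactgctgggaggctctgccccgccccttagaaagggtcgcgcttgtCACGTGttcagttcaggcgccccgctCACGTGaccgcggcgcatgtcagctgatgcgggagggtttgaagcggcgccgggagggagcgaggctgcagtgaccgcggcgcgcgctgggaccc
Ctsd: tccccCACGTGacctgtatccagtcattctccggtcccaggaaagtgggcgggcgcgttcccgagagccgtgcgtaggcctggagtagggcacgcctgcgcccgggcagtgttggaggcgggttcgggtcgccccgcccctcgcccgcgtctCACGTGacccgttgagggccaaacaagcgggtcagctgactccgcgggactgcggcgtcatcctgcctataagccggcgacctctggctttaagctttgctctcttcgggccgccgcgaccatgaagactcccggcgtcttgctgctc
Ctsa: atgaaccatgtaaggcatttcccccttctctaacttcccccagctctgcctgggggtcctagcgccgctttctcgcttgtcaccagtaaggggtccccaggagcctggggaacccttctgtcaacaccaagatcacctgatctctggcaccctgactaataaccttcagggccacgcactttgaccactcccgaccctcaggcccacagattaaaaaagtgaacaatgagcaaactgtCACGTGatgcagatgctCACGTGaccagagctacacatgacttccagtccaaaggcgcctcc
Neu1: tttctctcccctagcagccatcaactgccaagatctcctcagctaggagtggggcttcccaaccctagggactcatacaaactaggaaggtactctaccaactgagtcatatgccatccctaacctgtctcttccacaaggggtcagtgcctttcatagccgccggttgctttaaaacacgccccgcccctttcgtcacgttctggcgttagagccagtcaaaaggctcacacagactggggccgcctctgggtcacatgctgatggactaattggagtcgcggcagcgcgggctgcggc
Gabarapl1: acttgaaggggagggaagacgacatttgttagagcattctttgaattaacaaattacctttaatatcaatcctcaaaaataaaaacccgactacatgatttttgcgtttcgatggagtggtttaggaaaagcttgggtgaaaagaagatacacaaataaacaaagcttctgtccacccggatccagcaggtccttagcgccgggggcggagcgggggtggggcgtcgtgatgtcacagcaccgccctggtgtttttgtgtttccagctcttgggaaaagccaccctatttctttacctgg
Lamp1 has 4 copies of the core within 61 bases before the start, at -61, -45, -28 and -15 counted from the start to the first base of the copy. Mcoln1 has copies at -71 and -45, Ctsd at -245 and -98, and Ctsa at -12 and +6.

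Expression values without a stated unit were read as FPKM, a level per length of transcript and per mapped fragments in the library, and each gene was tested with limma on log2(FPKM + 1), with Benjamini-Hochberg adjustment over 14661 genes. A gene was called at an adjusted p under 0.05, and each difference is Max-KO minus WT on that log2 scale. All 31 members passed the filter of a mean of at least 1 FPKM in 1 group or more, and each had such a mean in both groups. Of the 31, 10 rose (32.3%, where 43.0% of all genes tested rose), 10 fell (32.3%, where 23.2% of all genes fell) and 11 missed the threshold. The share called in either direction, 64.5%, was near the 66.2% of all genes. In bulk RNA, fewer cells of a type and less RNA per cell cannot be told apart.

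The median difference of the members was 0.01, against 0.21 over all genes tested, and 10 of the 31 members lay above that all-gene median. The largest rises, of Lamp1 and Wipi1 at 0.99 each, came close to the log2 difference of 1 that 13.9% of all genes reached upward. As ratios of mean FPKM, these 2 rises were 1.99 for Lamp1 and 2.16 for Wipi1. A fall of 2-fold or more on the log2(FPKM + 1) scale was called in 5 members, Ctsz, Neu1, Gusb, Gabarapl1 and Atg9b. That is 16.1% of the members where 4.86% of all genes fell that far. In wider lists of the same pathway, 2 of 156 tested genes (1.28%) fell that far. Members and wider lists were both chosen with earlier results of these data known, so this contrast is no result about either. The 3 Max-KO values lay entirely above the 3 WT values in 11 members (46.3% of all genes) and entirely below them in 11 members (25.7% of all genes), and the groups overlapped in 9. The groups were thus apart in 71.0% of the members and 72.0% of all genes.

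The summed FPKM of the whole libraries ran from 645169 to 658361 in Max-KO and from 743406 to 774405 in WT, so the split between rises and falls moves with the scaling. After rescaling to TPM (which equalises these sums), the all-gene median difference was 0.41, and 14 members rose and 7 fell. With median-ratio scaling that median was 0.04, and 7 members rose and 15 fell. Quantile normalization gave a median of -0.02, with 9 members higher and 14 lower. Of all genes called, 64.9% were higher with FPKM as deposited, 76.9% after rescaling to TPM, 51.4% with median-ratio scaling and 46.7% with quantile normalization. In 13 members the call and its direction held under these and all other settings tried. Those 13 were Lamp1, Npc1, Ctsb, Asah1, Becn1 and Wipi1 among the rises, and Ctsl, Ctsz, Neu1, Gusb, Sqstm1, Gabarapl1 and Atg9b among the falls. Which changes reached 2-fold moved with the scaling. After rescaling to TPM, Lamp1 rose by 1.205, while the falls of Ctsz and Gusb were 0.82 and 0.97. Neu1, Gabarapl1 and Atg9b stayed beyond a 2-fold fall in every alternative.

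**Figure D1:**
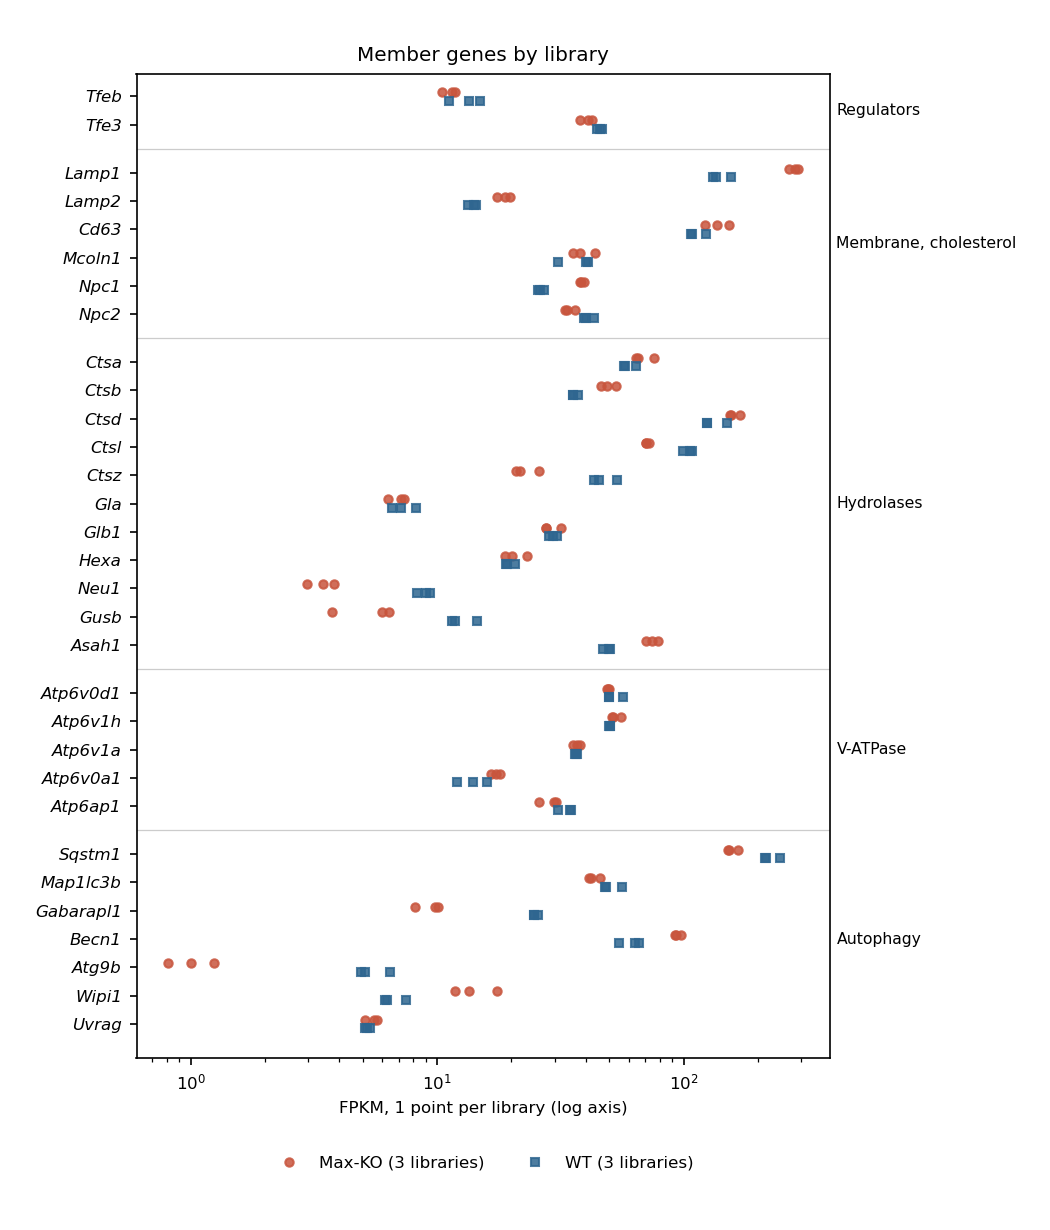
FPKM of the 31 members in each library, on a log axis, with Max-KO as circles above WT as squares and the genes grouped by role. Lamp1 is the most abundant member in Max-KO at a mean of 280.6 FPKM, and Atg9b, at 0.81 to 1.24 FPKM in Max-KO, stands farthest from its WT values.

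Depth was estimated from the steps between low FPKM values at 21.3 to 28.9 M fragments per library, which makes 1 FPKM of a 2 kb transcript worth 42.6 to 57.8 fragments. The spread between libraries of a group was taken in 296 genes as the scaled median absolute deviation of their log2 ratios. It was 0.0676 between WT 1 and WT 2, 0.167 to 0.177 between WT 3 and either of them, and 0.123 to 0.129 between Max-KO libraries. The error from counting alone was put at 0.0461 to 0.0519. WT 1 and WT 2 were thus the closest pair, and WT 3 stood apart from both. Max itself had 35.8, 39.6 and 43.4 FPKM in Max-KO and 41.6, 50.2 and 42.3 FPKM in WT, a difference of -0.17 ± 0.10 (limma adjusted p = 0.168), and a gene-level value does not show whether a part of the transcript is missing. The 5 markers of embryonic stem cells summed to 1803 to 1903 FPKM in Max-KO and 1508 to 1580 FPKM in WT. Germ cell markers (5 of 5 higher) summed to 846 to 882 FPKM in Max-KO and 26.5 to 32.4 FPKM in WT. Primitive endoderm markers summed to 3.33 to 6.96 FPKM in Max-KO and 0.91 to 1.47 FPKM in WT, with Foxa2 at 0 in WT 2 and WT 3. The 3 of these 6 markers that were tested (Sox17, Gata4 and Pdgfra) were called higher, but all were under 1 FPKM in WT, so the filter set their direction, and quantile normalization called 1 of them. Trophoblast markers summed to 29.7 to 37.4 FPKM in Max-KO and 28.6 to 30.1 FPKM in WT. Most of that was Tfap2c, which lay lower in every Max-KO library (-0.30, limma adjusted p = 0.0536), while Hand1 was called higher, as were Elf5 and Gata3, whose direction the filter set. Macrophage markers, which matter here because macrophages are rich in lysosomes, summed to 0.85 to 2.33 FPKM in Max-KO and 0.28 to 0.62 FPKM in WT. Of these 5 markers, Lyz2 was at 0 in 5 of 6 libraries and Ptprc at 0.17 to 0.35 FPKM in Max-KO and 0 to 0.02 FPKM in WT. Cd14, at 0 to 0.25 FPKM in Max-KO and 0.16 to 0.26 FPKM in WT, had the lower mean in Max-KO. Adgre1 was at 0 to 0.89 FPKM in Max-KO and 0 to 0.4 FPKM in WT, and both genes overlapped between the groups. Csf1r, the only one tested, had 0.77, 1.96 and 0.43 FPKM in Max-KO and 0.02, 0.01 and 0.11 FPKM in WT and was called higher (limma adjusted p = 0.0192), again with the direction set by the filter. Fibroblast markers summed to 7.67 to 9.97 FPKM in Max-KO and 7.69 to 8.07 FPKM in WT. Among them Col1a1 was called higher (ratio 1.65, limma adjusted p = 0.00368), though not with quantile normalization (adjusted p = 0.629). Col3a1, not tested, lay lower in every Max-KO library. Neural markers (3 of 4 lower) summed to 60.7 to 65.5 FPKM in Max-KO and 119 to 137 FPKM in WT. Most of that was Tubb3, with means of 60.5 FPKM in Max-KO and 117 FPKM in WT. The part of these cell types in the members' differences was not tested.

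Of the regulators among the members, Tfe3 fell slightly and Tfeb missed the threshold. Tfe3, on chromosome X (chrX:7762560-7775202 in GRCm38), had 40.9, 42.4 and 38.0 FPKM in Max-KO and 45.7, 44.4 and 46.8 FPKM in WT. All 3 Max-KO values lay below the 3 WT values, and Tfe3 fell by 0.17 ± 0.06 on the log2 scale (SE, limma adjusted p = 0.0392). That call was lost without Max-KO 1 (adjusted p = 0.0757), without Max-KO 3 (0.106), without WT 1 (0.0951), without WT 2 (0.0625) and without WT 3 (0.071), and after rescaling to TPM the difference was 0.04. Tfeb (chr17:47737030-47792419) had 11.8, 11.5 and 10.4 FPKM in Max-KO and 11.1, 13.5 and 14.9 FPKM in WT. The groups overlapped, and the difference of -0.20, with a 95% interval of -0.47 to 0.07, missed the threshold (limma adjusted p = 0.154). Without WT 1 it was -0.31 and called (adjusted p = 0.036). Tfeb was also called lower with median-ratio scaling, at -0.39 (adjusted p = 0.0244), and with quantile normalization, at -0.47 (adjusted p = 0.011). Without WT 3 the Tfeb difference was -0.11 (adjusted p = 0.375), and after rescaling to TPM it was -0.0056 (adjusted p = 0.967).

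Mitf, another MiT/TFE factor and a gene of the wider lists, was higher by far more than Tfe3 was lower. It had 27.1, 25.1 and 29.8 FPKM in Max-KO and 3.01, 3.67 and 2.68 FPKM in WT. The groups were 8.75-fold apart in their means, with a log2 difference of 2.78 ± 0.11 (limma adjusted p = 4.21e-06). Mitf made up 34.3 ± 3.35% of the summed FPKM of the 4 family genes (with Tfec, at 0 to 2.95 FPKM and not tested) in Max-KO and 4.96 ± 0.767% in WT (SD, n = 3 each). Tfe3 gave 50.7% of that sum in Max-KO and 72.6% in WT, and remained the most abundant of the family in both. The family sum was 79.7 ± 2.01 FPKM in Max-KO and 62.9 ± 2.69 FPKM in WT. The families summed here and below were put together after their values had been seen and carry no test.

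Among the 6 proteins of the lysosomal membrane and of cholesterol export, 4 rose (66.7%), 1 fell (16.7%) and 1 missed the threshold. Of all genes tested, 43.0% rose and 23.2% fell. The median difference of the 6 was 0.34 (0.15 with median-ratio scaling and 0.55 after rescaling to TPM). The all-gene median was 0.21 (0.04 and 0.41 with those scalings). Lamp1 encodes a major glycoprotein of the lysosomal membrane, which shields it from the enzymes inside. It had 284, 267 and 291 FPKM in Max-KO and 135, 132 and 156 FPKM in WT. Every Max-KO library was far above every WT library, with means of 280.6 ± 12.1 and 141 ± 13.0 FPKM (SD, n = 3), a ratio of 1.99 and a log2 difference of 0.99 ± 0.08 (limma adjusted p = 4.32e-05). Lamp2, its relative with a part in chaperone-mediated autophagy and in fusion of autophagosomes with lysosomes, had 17.5, 18.9 and 19.7 FPKM in Max-KO and 14.1, 14.4 and 13.4 FPKM in WT. It rose by 0.40 ± 0.07 (limma adjusted p = 0.0026) without overlap, but quantile normalization gave 0.16 and an adjusted p of 0.0934. Cd63, a tetraspanin of late endosomes and exosomes, had 136, 122 and 153 FPKM in Max-KO and 108, 107 and 123 FPKM in WT. Here Max-KO 2 lay just under WT 3, and the rise of 0.28 ± 0.10 (limma adjusted p = 0.0367) was lost without Max-KO 1 (adjusted p = 0.0844), Max-KO 3 (0.106), WT 1 (0.103) or WT 2 (0.104), and was 0.08 under median-ratio scaling.

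The pair of proteins that carry cholesterol out of the lysosome moved in opposite directions. Npc1, the membrane transporter, had 38.1, 38.3 and 39.3 FPKM in Max-KO and 26.1, 25.8 and 27.2 FPKM in WT. Its groups were tight and well apart, and it rose by 0.53 ± 0.05 (limma adjusted p = 1.54e-04; 0.34 under median-ratio scaling). Npc2, the soluble protein that hands cholesterol to NPC1, had 33.1, 33.5 and 36.4 FPKM in Max-KO and 39.4, 40.2 and 43.3 FPKM in WT. It was lower in every Max-KO library and fell by 0.25 ± 0.07 (limma adjusted p = 0.0126), though after rescaling to TPM the difference was -0.04 (adjusted p = 0.555). Mcoln1, the calcium channel of the lysosome that activates TFEB, had 35.6, 43.7 and 38.1 FPKM in Max-KO and 40.8, 40.2 and 30.9 FPKM in WT. The groups were interleaved, and the difference of 0.07 had an interval of -0.22 to 0.37 (limma adjusted p = 0.622).

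**Figure D2:**
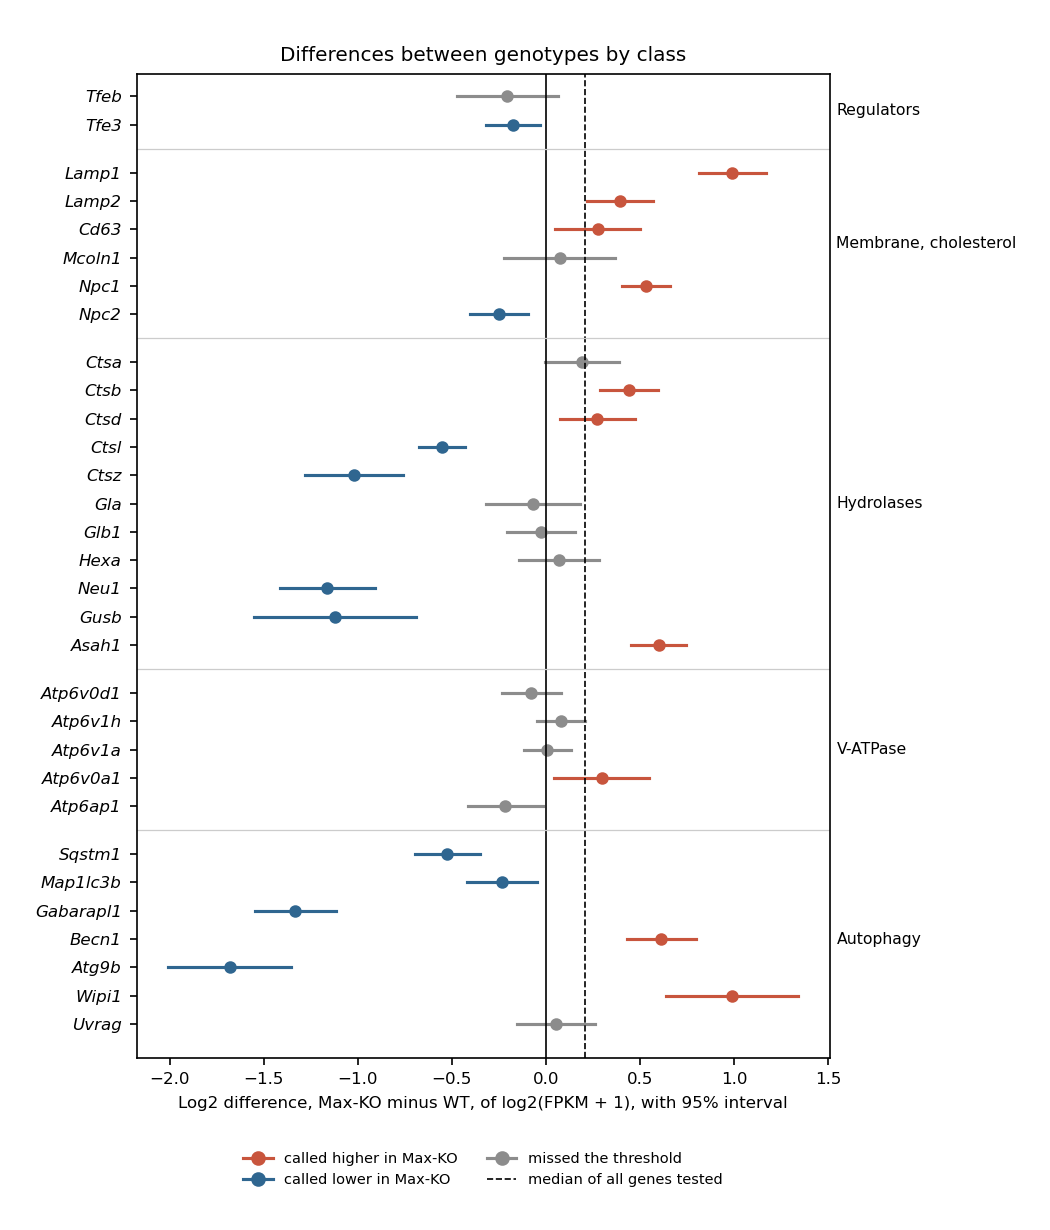
Log2 difference of log2(FPKM + 1), Max-KO minus WT, for each member with its 95% interval, coloured by call and grouped by role. The membrane genes lie mostly right of 0, up to 0.99 for Lamp1, the V-ATPase subunits close to 0, and the autophagy genes from -1.68 for Atg9b to 0.99 for Wipi1.

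The 11 hydrolases held 3 rises (27.3%), 4 falls (36.4%) and 4 that missed the threshold, where 43.0% of all genes rose and 23.2% fell. Their summed level was 512 ± 25.8 FPKM in Max-KO and 507 ± 28.7 FPKM in WT. Among the cathepsins, the proteases of the lysosome, the aspartic protease Ctsd had 155, 156 and 169 FPKM in Max-KO and 125, 124 and 149 FPKM in WT. The groups were apart, and it rose by 0.27 ± 0.08 (limma adjusted p = 0.0238). The call was lost without Max-KO 2 (adjusted p = 0.0518), Max-KO 3 (0.0798), WT 1 (0.0774) or WT 2 (0.0764), and median-ratio scaling gave 0.08. The cysteine protease Ctsb had 46.4, 48.9 and 53.2 FPKM in Max-KO and 37.1, 35.5 and 35.6 FPKM in WT. It was higher in each Max-KO library and rose by 0.44 ± 0.07 (limma adjusted p = 8.52e-04; 0.25 under median-ratio scaling). Exons of Ctsb and Fdft1 on the other strand share 774 bases, and Fdft1 was at 29.7 to 31.9 FPKM in Max-KO and 58.0 to 68.7 FPKM in WT.

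The other cysteine cathepsins among the members fell. Ctsl, an endopeptidase, had 70.2, 70.6 and 72.3 FPKM in Max-KO and 106, 99.7 and 108 FPKM in WT. The Max-KO libraries were close to each other and far below WT, and Ctsl fell by 0.55 ± 0.05 (limma adjusted p = 1.07e-04; -0.34 after rescaling to TPM). Ctsz, a carboxypeptidase, had 21.8, 20.9 and 25.9 FPKM in Max-KO and 43.3, 45.2 and 53.7 FPKM in WT. The means of 22.9 ± 2.70 FPKM in Max-KO and 47.4 ± 5.52 FPKM in WT (SD, n = 3) gave a ratio of 0.482 and a log2 difference of -1.02 ± 0.11 (limma adjusted p = 2.04e-04). Ctsa, the protective protein that keeps beta-galactosidase and neuraminidase stable in a complex, had 64.2, 65.0 and 76.2 FPKM in Max-KO and 57.4, 57.7 and 63.8 FPKM in WT. The groups were just apart, and the difference of 0.19 missed the threshold (limma adjusted p = 0.074), but it was 0.24 and called without WT 3 (adjusted p = 0.0426) and 0.41 after rescaling to TPM.

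Of the partners of Ctsa in that complex, Neu1 fell and Glb1 missed the threshold. Neu1 (chr17:34931253-34935953), the sialidase that trims sialic acid from glycoproteins, had 2.98, 3.82 and 3.46 FPKM in Max-KO and 8.98, 9.36 and 8.25 FPKM in WT. No library came near those of the other genotype, and Neu1 fell by 1.16 ± 0.11 (ratio 0.386, limma adjusted p = 9.9e-05). Glb1, the lysosomal beta-galactosidase, had 27.5, 27.5 and 31.9 FPKM in Max-KO and 28.4, 29.5 and 30.6 FPKM in WT. The groups overlapped, with a difference of -0.03 and an interval of -0.21 to 0.16 (limma adjusted p = 0.785), but median-ratio scaling called it at -0.22 (adjusted p = 0.0492) and rescaling to TPM gave 0.18.

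Of the remaining glycosidases and lipid hydrolases, Gusb, the beta-glucuronidase that degrades glycosaminoglycans, had 3.74, 6.36 and 5.95 FPKM in Max-KO and 11.8, 11.5 and 14.5 FPKM in WT. Max-KO 1 was the lowest library, all 3 Max-KO values were well below the lowest WT value, and Gusb fell by 1.12 ± 0.18 (ratio 0.424, limma adjusted p = 0.00137). Asah1, the acid ceramidase, had 79.0, 70.5 and 74.3 FPKM in Max-KO and 50.2, 49.6 and 46.9 FPKM in WT. It rose by 0.60 ± 0.06 (ratio 1.53, limma adjusted p = 1.59e-04), the largest rise among the 11 hydrolases. Gla, the alpha-galactosidase A lost in Fabry disease, had 7.13, 7.32 and 6.30 FPKM in Max-KO and 7.16, 6.58 and 8.19 FPKM in WT, with a difference of -0.07 (interval -0.32 to 0.18, limma adjusted p = 0.595). Hexa, the beta-hexosaminidase subunit lost in Tay-Sachs disease, had 18.9, 20.2 and 23.2 FPKM in Max-KO and 19.0, 19.2 and 20.8 FPKM in WT, with a difference of 0.07 (interval -0.14 to 0.28, limma adjusted p = 0.508). In both genes the groups overlapped, and the sign depends on the scaling. Gla was called at -0.40 with quantile normalization (adjusted p = 0.0207) and was 0.12 after rescaling to TPM. Hexa was called at 0.28 after rescaling to TPM (adjusted p = 0.0204) and was -0.12 with quantile normalization and also with median-ratio scaling.

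Of the 5 V-ATPase members 1 rose (20%, where 43.0% of all genes rose) and 4 missed the threshold. Their summed level was 185 ± 4.47 FPKM in Max-KO and 186 ± 6.39 FPKM in WT. These counts depend on the scaling, with 3 subunits called lower by median-ratio scaling, 3 called higher after rescaling to TPM, and 1 called lower by quantile normalization. Atp6v1a, the subunit that binds ATP in the cytoplasmic domain, had 37.8, 35.6 and 37.0 FPKM in Max-KO and 37.0, 36.1 and 36.6 FPKM in WT. Its 6 values covered the narrowest relative range, and the difference was 0.01 with an interval of -0.12 to 0.13 (limma adjusted p = 0.897). That depends on the scaling, since the difference was called at 0.22 after rescaling to TPM and at -0.18 with median-ratio scaling. Atp6v1h, a regulatory subunit that couples the domains, had 51.4, 55.9 and 51.9 FPKM in Max-KO and 50.3, 50.5 and 49.7 FPKM in WT. All 3 Max-KO values lay above WT, by 0.08 (interval -0.05 to 0.21, limma adjusted p = 0.23), and the difference was 0.29 and called after rescaling to TPM and -0.11 under median-ratio scaling.

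In the membrane domain, Atp6v0d1, which links the rotor to the stalk, had 49.0, 49.8 and 49.2 FPKM in Max-KO and 49.8, 49.9 and 56.9 FPKM in WT. Only WT 3 stood off, and the difference was -0.08 (interval -0.23 to 0.08, limma adjusted p = 0.334). Median-ratio scaling called it at -0.27 (adjusted p = 0.0161), and rescaling to TPM gave 0.13. Atp6ap1, an accessory protein of pump assembly, had 26.0, 30.3 and 29.9 FPKM in Max-KO and 30.8, 35.04 and 34.5 FPKM in WT. Its groups were apart, and the difference of -0.21 missed the threshold narrowly (limma adjusted p = 0.0566), with -0.27 and a call without WT 1 (adjusted p = 0.0398). Over all alternatives the Atp6ap1 difference ran from -0.405 to -0.0072, with limma adjusted p from 0.00505 to 0.94. Atp6v0a1, 1 of 4 isoforms of the subunit that forms the proton path and directs the pump to a membrane, had 16.6, 18.0 and 17.3 FPKM in Max-KO and 14.0, 12.0 and 16.0 FPKM in WT. It rose by 0.30 ± 0.11 (limma adjusted p = 0.0409), and the call was lost without Max-KO 1 (adjusted p = 0.0645), Max-KO 2 (0.115), Max-KO 3 (0.092), WT 1 (0.084) or WT 2 (0.108) and was 0.11 under median-ratio scaling. Another isoform, Atp6v0a2 of the wider lists, named after its values were seen, had 13.2, 12.9 and 13.3 FPKM in Max-KO and 7.54, 7.57 and 8.46 FPKM in WT (0.68 ± 0.07, limma adjusted p = 2.71e-04).

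Among the 7 autophagy genes, 2 rose (28.6%), 4 fell (57.1%) and 1 missed the threshold, where 43.0% of all genes rose and 23.2% fell. Their median difference was -0.23 (-0.42 with median-ratio scaling and -0.02 after rescaling to TPM). The all-gene median was 0.21 (0.04 and 0.41 with those scalings). Becn1 encodes Beclin 1, the scaffold of the lipid kinase complex that marks the site of formation. It had 91.9, 93.3 and 97.6 FPKM in Max-KO and 66.2, 54.8 and 63.4 FPKM in WT. Each Max-KO library was well above WT, and Becn1 rose by 0.61 ± 0.08 (ratio 1.53, limma adjusted p = 4.25e-04). Wipi1 (chr11:109573331-109611967), which binds the lipid that this complex makes, had 11.9, 13.5 and 17.5 FPKM in Max-KO and 7.51, 6.16 and 6.24 FPKM in WT. The Max-KO values were more spread than those of WT but wholly above them, and Wipi1 rose by 0.99 ± 0.15 (ratio 2.16, limma adjusted p = 9.29e-04). Uvrag, a further partner of Beclin 1, had 5.57, 5.10 and 5.71 FPKM in Max-KO and 5.22, 5.32 and 5.11 FPKM in WT. The groups overlapped, with a difference of 0.05 (interval -0.15 to 0.26, limma adjusted p = 0.606) that median-ratio scaling made -0.11. Quantile normalization turned the sign and called Uvrag lower, at -0.32.

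Both ATG8 family members, which are joined to lipid on the growing membrane, and a cargo receptor that binds them fell. Gabarapl1 (chr6:129533160-129542346) had 9.82, 8.13 and 10.1 FPKM in Max-KO and 24.6, 24.7 and 25.6 FPKM in WT. The WT libraries were within 1 FPKM of each other and Max-KO lay far beneath, with a ratio of 0.375 and a log2 difference of -1.33 ± 0.09 (limma adjusted p = 2.72e-05). Map1lc3b, the LC3B protein widely used as a marker of autophagosomes, had 41.2, 42.1 and 45.8 FPKM in Max-KO and 48.0, 48.4 and 56.0 FPKM in WT. It fell by 0.23 ± 0.08 (limma adjusted p = 0.0341). The call was missed without Max-KO 1 (adjusted p = 0.102), Max-KO 2 (0.0948) or WT 3 (0.0571), and the difference was -0.02 after rescaling to TPM. Sqstm1, the p62 receptor that brings ubiquitinated cargo to ATG8 proteins, had 153, 151 and 165 FPKM in Max-KO and 213, 216 and 247 FPKM in WT. It was the most abundant member in WT, lay lower in every Max-KO library and fell by 0.52 ± 0.07 (ratio 0.694, limma adjusted p = 6.76e-04; -0.31 after rescaling to TPM).

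Atg9b had the largest fall of the 31 members. It is the second mammalian form of the lipid scramblase ATG9, which seeds the autophagosome membrane (chr5:24384181-24392143, minus strand). It had 1.00, 0.81 and 1.24 FPKM in Max-KO and 4.92, 6.42 and 5.08 FPKM in WT, a ratio of 0.186 and a log2 difference of -1.68 ± 0.14 (limma adjusted p = 6.02e-05). Its exons share 294 bases with Nos3 on the other strand, which was at 0.43 to 1.39 FPKM in Max-KO and 1.06 to 1.38 FPKM in WT. In all, 16 of the 31 members share exonic bases with another annotated gene, and no source states a stranded library, so such reads cannot be told apart.

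Family sums of FPKM show how the RNA of each family was divided among its genes. Gabarapl1 made up 3.55 ± 0.416% of the summed FPKM of the ATG8 family in Max-KO and 10.2 ± 0.520% in WT, while Gabarapl2 made up 32.6 ± 2.47% in Max-KO and 19.0 ± 1.03% in WT (SD, n = 3 each). The family sum was 263.5 ± 0.944 FPKM in Max-KO and 246 ± 17.8 FPKM in WT, with overlapping libraries. Gabarapl2, named after its values were seen, had 91.3, 88.3 and 78.4 FPKM in Max-KO and 46.7, 44.9 and 48.2 FPKM in WT (0.87 ± 0.07, limma adjusted p = 5.54e-05). Of the ATG9 forms, Atg9b gave 18.8 ± 2.76% of the summed FPKM in Max-KO and 45.2 ± 3.62% in WT, and that sum was 5.39 ± 0.433 FPKM in Max-KO and 12.1 ± 0.820 FPKM in WT. Among the cathepsins of all lists, the summed level was 403 ± 19.9 FPKM in Max-KO and 391 ± 25.9 FPKM in WT, and Ctsl made up 17.6% of it in Max-KO and 26.8% in WT.

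**Figure D3:**
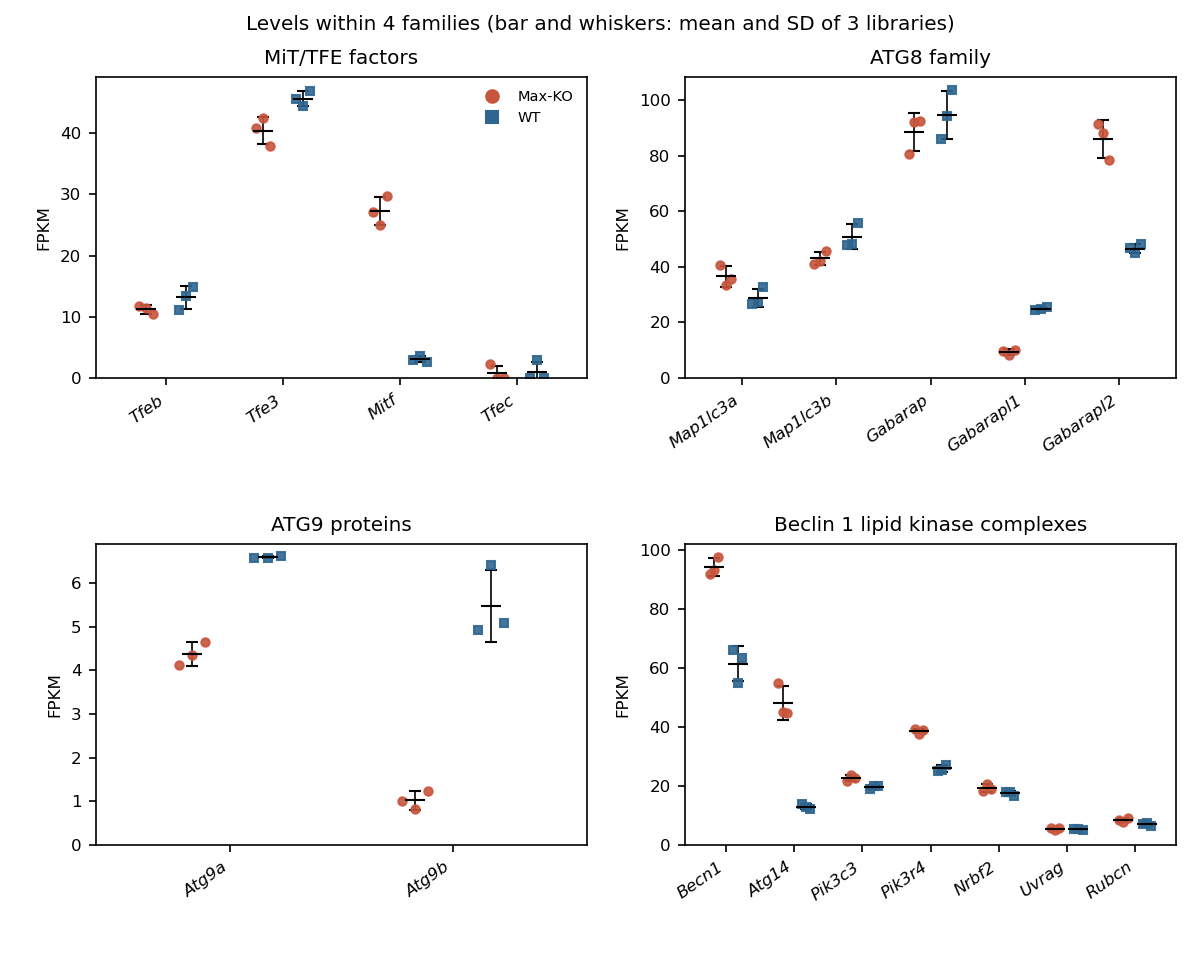
FPKM of the genes of 4 families, with a point for each library, Max-KO circles left of WT squares, and the mean and SD of 3 libraries as a bar with whiskers. Mitf and Gabarapl2 stand well above WT and Gabarapl1, Atg9a and Atg9b below it, while the libraries of Gabarap and Uvrag overlap.

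Lists of 168 other genes of the pathway, of which 156 were tested, held 81 rises (51.9%), 25 falls (16.0%) and 50 that missed the threshold, with a median difference of 0.30. Over all genes tested 43.0% rose and 23.2% fell, and the share of the wider lists called in either direction, 67.9%, was near the 66.2% of all genes. Of 46 other autophagy genes, all tested, 27 rose, 2 fell and 17 missed it, where 2 of the 7 autophagy members rose and 4 fell. Both lists were chosen with earlier results known, so this contrast is no result about either. Rescaling to TPM gave 35 rises and 2 falls among the 46, and median-ratio scaling or quantile normalization 19 rises and 7 falls. Atg14, the subunit that brings the Beclin 1 complex to autophagosome sites, had 54.8, 45.2 and 44.7 FPKM in Max-KO and 13.9, 12.8 and 12.1 FPKM in WT. It rose by 1.81 ± 0.10 (ratio 3.72, limma adjusted p = 1.04e-05), in the same direction as Becn1. Atg13, of the ULK1 kinase complex that starts autophagy, rose by 1.09 (ratio 2.17), and Atg10, the conjugating enzyme for ATG12, by 1.49 (ratio 4.49). The falls were Atg9a, the main ATG9 form, by 0.50 (ratio 0.664), and Bnip3, a receptor for the removal of mitochondria. Bnip3 had 10.7, 17.9 and 14.8 FPKM in Max-KO and 117, 120 and 118 FPKM in WT, and fell by 2.98 ± 0.16 (ratio 0.122, limma adjusted p = 1.36e-05).

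Of 38 other hydrolases and activators tested, 15 rose, 10 fell and 13 missed the threshold. This split was 17 and 5 after rescaling to TPM, 11 and 13 with median-ratio scaling, and 11 and 17 with quantile normalization. The cathepsins Ctsc (ratio 3.60, 1.51 on the log2 scale) and Ctsf (ratio 2.94, 1.44) and the asparaginyl endopeptidase Lgmn (ratio 2.40, 1.23) rose most. Acp5, the tartrate-resistant acid phosphatase, had 0.86, 1.16 and 1.90 FPKM in Max-KO and 12.6, 10.4 and 10.9 FPKM in WT, the largest fall (-2.43 on the log2 scale, limma adjusted p = 3.43e-05). Hyal2, a hyaluronidase, fell by 0.90, and Dnase2a, the acid DNase of the lysosome, fell by 0.87, with that call lost without WT 2 (adjusted p = 0.0564) and after rescaling to TPM (0.0517). The 30 other membrane and sorting genes tested held 18 rises, 2 falls and 10 that missed the threshold, led by Lmbrd1 (ratio 3.17), which exports vitamin B12 from lysosomes, Slc38a9 (ratio 3.52), an arginine sensor, and Ostm1 (ratio 2.13), a chloride transporter subunit. Here median-ratio scaling and quantile normalization each gave 12 rises and 4 falls. The falls were Gnptab, which makes the mannose 6-phosphate tag of lysosomal enzymes (ratio 0.614), and Sort1, a sorting receptor (ratio 0.705).

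Of 18 other V-ATPase genes tested, 7 rose, 6 fell and 5 missed the threshold, with 10 rises and 2 falls after rescaling to TPM and 7 and 8 with median-ratio scaling. Atp6v1b2, a subunit of the catalytic ring beside Atp6v1a, had 98.3, 94.3 and 99.5 FPKM in Max-KO and 57.7, 62.0 and 61.8 FPKM in WT, and rose by 0.68 (limma adjusted p = 4.92e-05). Vma21, an assembly factor, rose by 0.76, and so did Atp6v1c2 by 0.96, which was under 1 FPKM in WT, so that the filter set its direction, and which quantile normalization did not call (adjusted p = 0.0778). Atp6v1g1, a stalk subunit, had 44.2, 41.6 and 47.9 FPKM in Max-KO and 65.4, 67.2 and 69.9 FPKM in WT, and fell by 0.59. Atp6v0e fell by 0.44, and Tcirg1, the a3 isoform of osteoclasts, by 0.50 (limma adjusted p = 0.0278), which missed the threshold without Max-KO 1 (adjusted p = 0.0548), Max-KO 2 (0.0587), WT 1 (0.0756) or WT 2 (0.0803) and after rescaling to TPM (0.129). Of 24 other regulators and nutrient sensing genes tested, 14 rose, 5 fell and 5 missed the threshold, with 18 rises and 3 falls after rescaling to TPM and 9 and 6 with either other scaling. After Mitf, the largest rises were of Foxo1, a transcription factor that activates autophagy genes (ratio 2.07), and Nprl3, of the GATOR1 complex that inhibits mTORC1 (ratio 1.93). The largest falls were of Rragb, a Rag GTPase (log2 difference -0.68), Lamtor4, of the Ragulator complex that anchors the Rag GTPases (ratio 0.646), and Fnip2, a folliculin partner (ratio 0.667).

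**Figure D4:**
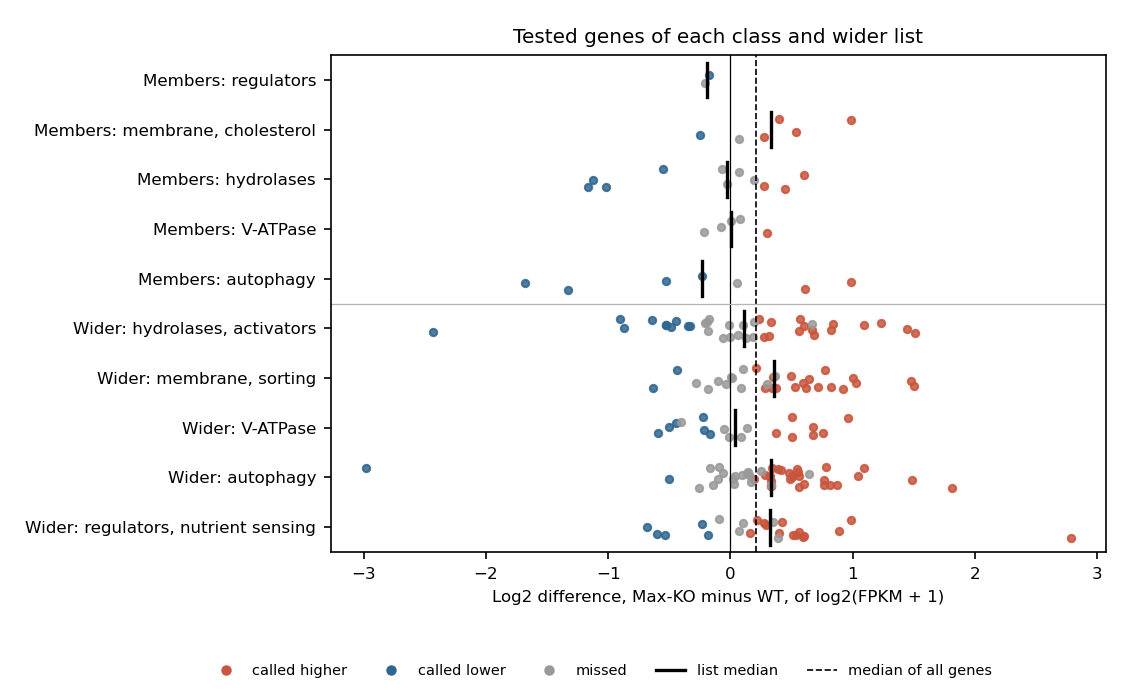
Log2 difference of log2(FPKM + 1), Max-KO minus WT, of each tested gene in the 5 classes of members and the 5 wider lists, coloured by call, with the list medians as black bars and the all-gene median of 0.21 as a dashed line. The autophagy members have a median of -0.23 and the 46 other autophagy genes 0.33.

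The core motif stood in a larger share of the members' promoters than of promoters at large, as a count of matches without a test. Windows were at hand for 26 of the 31 members (the others were Npc1, Ctsb, Asah1, Atp6v1h and Becn1). A gene with several windows was counted if any of them held the motif, as with Ctsa. CACGTG, which reads the same on both strands, stood in 9 of the 26 (34.6%), where 8.09% of 27025 genes with a window and 11.8% of the 10394 tested genes with a window had it. The longer GTCACGTG, searched on both strands and containing the core, stood in 7 members (26.9%, against 2.55% of all genes and 4.83% of tested genes with a window). The E-box CAGCTG, which does not contain the core, stood in 8 members (30.8%, against 18.3% of all genes and 17.8% of tested genes with a window). These are matches of letters, which do not show binding.

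Of the 9 members with CACGTG, Lamp1 and Ctsd rose, Ctsl fell, and Mcoln1, Ctsa, Gla, Glb1, Atp6v0d1 and Atp6v1a missed the threshold. Of the 17 without it, 4 rose, 9 fell and 4 missed it. The wider lists had the other order: 9 of 28 tested genes with the core fell (32.1%) and 10 rose (35.7%), where 10 of 99 without it fell (10.1%) and 55 rose (55.6%). Among all tested genes with a window, 38.7% of those with the core rose and 28.5% fell, where 42.5% of those without it rose and 24.4% fell. The members were chosen by symbol, from the kinds of genes that MiT/TFE factors activate through this core. A higher share of promoters with the core is thus partly built into the choice and is no result about the members.

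**Figure D5:**
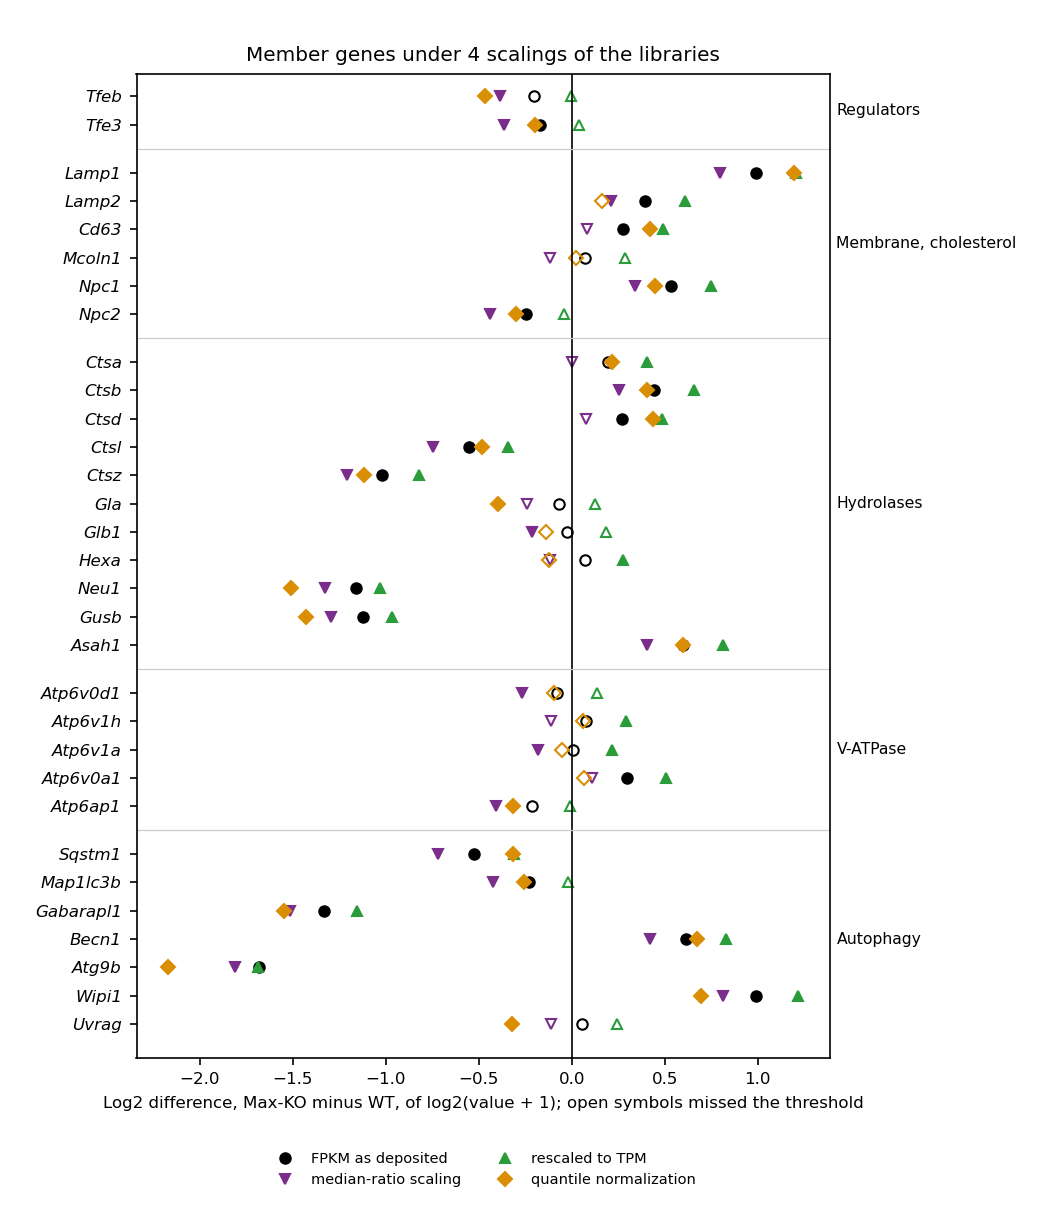
Log2 difference, Max-KO minus WT, of each member under 4 scalings of the libraries, with filled symbols where the gene was called and open symbols where it missed the threshold. Rescaling to TPM lies to the right and median-ratio scaling to the left in most genes, Atp6v1a is called at 0.22 in the one and at -0.18 in the other, and Lamp1 stays between 0.79 and 1.20.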

How the data were processed

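RNA was measured by RNA-seq in 6 libraries, 3 Max-KO and 3 WT. Per the labels' protocols, RNA was extracted with Trizol. The deposited files have no header and give 1 value per gene. The deposited values were taken as FPKM, computed by the authors, because their sums differ between libraries and their smallest steps shrink with transcript length. Per the submitters' processing notes, the authors' tools included HISAT2 2.1.0 and RSEM, with FastQC and DESeq 1.26.0 also named, on build GRCm38.p6, with no role or order given. The files state no depth, and no counts were rebuilt.

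The 14661 genes whose mean reached 1 FPKM in either group were fitted as log2(FPKM + 1) by limma 3.58.1 (R 4.3.3, with trend and robust, 2-sided, genotype only), with Benjamini-Hochberg adjustment over all of them. This scale understates the change of low genes. The fit was tested on simulated data. Symbols came from GENCODE M21 and promoters from RefSeq; Python 3.11.15, pandas 2.3.3, numpy 2.4.6 and matplotlib 3.10.9 were used for tables and figures.

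The members, classes, wider lists and marker lists were chosen with earlier results of these data known. Every member is named. In each wider list up to 3 called genes with the largest rise and up to 3 with the largest fall are named, and others are said to be chosen after their values were seen.

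Alternatives were a pseudocount of 0.1, no filter, median-ratio scaling, TPM, quantile normalization, limma without trend and robust, a replicate block and leaving out each library. The average of WT 1 and WT 2 as 1 library was added after seeing the data.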

Additional observations from a re-analysis of the deposited data

How the results depend on the processing

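Calls of 13 members held in every alternative. Counts of members called higher and lower were 10 and 10, and ranged over the alternatives from 7 to 14 higher and from 7 to 15 lower. Leaving out single libraries gave 7 to 11 higher and 8 to 11 lower. No filter and limma without trend and robust each gave 8 and 8, and WT 1 and WT 2 averaged as 1 library gave 7 and 9. Labels give both groups the numbers 1 to 3. The correlations of same-numbered deviations were -0.0006, 0.016 and 0.0855, and not every library correlated best with its own number, so the numbers were not taken to pair the samples. With the replicate block, 10 members were higher and 10 lower; Tfe3 (adjusted p = 0.0783) and Atp6v0a1 (0.0593) lost the call, and Ctsa (0.0286) and Atp6ap1 (0.0274) gained it.

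The sign of small differences turned with the scaling. Rescaling to TPM gave 0.037 for Tfe3, 0.12 for Gla, 0.18 for Glb1 and 0.13 for Atp6v0d1. Median-ratio scaling gave -0.12 for Mcoln1, -2.959e-05 for Ctsa, -0.12 for Hexa, -0.11 for Atp6v1h, -0.18 for Atp6v1a and -0.11 for Uvrag. Quantile normalization gave -0.12 for Hexa, -0.052 for Atp6v1a and -0.32 for Uvrag, which it called lower. Leaving out single libraries moved Mcoln1 between -0.053 and 0.14, Gla between -0.13 and 0.0072, Glb1 between -0.094 and 0.0091, Hexa between -0.0091 and 0.13, and Atp6v1a between -0.011 and 0.032. Apart from Tfe3, none of these genes was called in the fit on FPKM as deposited. Groups of 3 libraries, whose independence as cultures is not stated, limit what differences near 0.2 can show.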

Other observations

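Some genes of the wider lists, chosen after their values were seen, act in the mannose 6-phosphate route by which lysosomal enzymes are sorted or, further on, in the removal of mitochondria. M6pr, the cation-dependent receptor, had 88.8, 91.2 and 91.4 FPKM in Max-KO and 60.4, 59.3 and 59.4 FPKM in WT (0.59 ± 0.05 on the log2 scale, limma adjusted p = 4.46e-05). Igf2r, the larger receptor, had 29.8, 34.0 and 35.01 FPKM in Max-KO and 18.3, 18.8 and 17.4 FPKM in WT (0.82 ± 0.08, limma adjusted p = 1.15e-04). Both receptors rose under every alternative tried, while Gnptab, which starts the tag they bind, had 6.89, 6.82 and 7.24 FPKM in Max-KO and 11.1, 11.6 and 11.4 FPKM in WT. Gnptg, the other phosphotransferase subunit gene in the lists, had 15.2, 17.5 and 16.8 FPKM in Max-KO and 14.3, 13.7 and 14.4 FPKM in WT. It was called higher (0.21 ± 0.08, limma adjusted p = 0.0447), but that call was lost without Max-KO 2 (adjusted p = 0.138), Max-KO 3 (0.106), WT 1 (0.0926), WT 2 (0.124) or WT 3 (0.0531), and quantile normalization gave -0.02.

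Among other receptors for the removal of mitochondria, Bnip3l and Fundc1 were higher where Bnip3 fell. The close relative Bnip3l had 61.2, 55.9 and 53.0 FPKM in Max-KO and 45.1, 45.9 and 43.5 FPKM in WT (0.33 ± 0.07, limma adjusted p = 0.00381), though median-ratio scaling gave 0.14 and an adjusted p of 0.106. Fundc1 had 11.2, 13.2 and 12.6 FPKM in Max-KO and 8.46, 8.54 and 8.55 FPKM in WT (0.48 ± 0.08, limma adjusted p = 0.00182), with 0.20 and an adjusted p of 0.0852 under quantile normalization.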
